A study of Ovis aries with 9 samples.

Results

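Gene expression at gestation day 105 (D105) in the longissimus dorsi, the long muscle of the back, was set against the level that a steady change between gestation days 85 and 135 (D85 and D135) would give. For each locus a straight line was drawn between the D85 and D135 means on the log2(FPKM + 1) scale. FPKM counts fragments relative to the length of the transcript and to all fragments mapped. D105 lies 20 of the 50 days along, so the line has the level 0.6 times D85 plus 0.4 times D135, and the departure is the D105 mean minus that level. Of 22605 loci in the table, 13086 had an FPKM of at least 1 in at least 3 of 9 libraries and were compared. A locus can lie off the line and still be between the other days, so a peak or trough was called only where D105 differed from both days in the same direction.

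The muscle came from Chinese merino sheep fetuses, with 3 libraries for each gestation day and no treatment named in the labels. Nothing in the labels tells whether libraries of the same day stem from different fetuses. The p-values therefore describe only how far these libraries scatter, which may be technical. A pair of sequencer models is named for the series and not assigned to libraries, and a batch effect of the sequencer was not tested. In bulk muscle, fewer cells of a type and less RNA per cell cannot be told apart.

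By mid to late gestation, fetal muscle of the sheep has formed most of its fibres, and the fibres then enlarge. They exchange developmental for adult isoforms of the contractile proteins and gain mitochondria before birth. Myoblasts, connective tissue cells and capillaries grow around them, and these cells contribute to RNA taken from whole muscle. On this scale a gene that rises late lies below the line at D105, and one that rises early lies above it.

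Read depth was unknown because the table holds no counts, but steps between low values put it at 0.993 to 1.20 times that of D85 replicate 1. The factors that scaled the libraries were 1.08 to 1.18 at D85, 1.11 to 1.14 at D105 and 0.788 to 0.850 at D135. Of 18 skeletal muscle fibre markers, 17 were tested, and their summed level ran from 8888 FPKM at D85 to 25770 FPKM at D135. D105 replicate 2 stood apart. Of 13 tendon markers 11 were tested, and their summed level was 174, 792 and 157 FPKM in D105 replicates 1, 2 and 3. It was 104 to 373 FPKM in the other libraries. The results are therefore given with and without that library. Values by library below are the deposited FPKM before scaling, in the order of replicates 1, 2 and 3, and departures are on the log2(FPKM + 1) scale after scaling, which understates the change of low genes.

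Few loci were called as off the line after adjustment over all tested loci. At an adjusted p under 0.05, 6 loci were above it (0.0459% of those tested) and 6 were below it (0.0459%). For peaks and for troughs, 1 locus each was called (0.00764%). At an unadjusted p under 0.05 there were 508 loci above (3.88%) and 926 below (7.08%), 79 peaks and 102 troughs. Of the 12 called loci, 6 held a reference transcript. The other 6 were assembled fragments with no reference transcript. Of all 12, 5 were listed at 0 in at least 1 library, which can be a failed estimate.

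RAP2C, a small GTPase of the Ras family, was high at D105. It was at 3.18, 3.52 and 3.53 FPKM at D85, 7.92, 9.69 and 6.55 FPKM at D105, and 2.09, 1.70 and 2.3 FPKM at D135. All D105 libraries were above the other 6. RAP2C departed from the line by 1.10 ± 0.12 (SE, adjusted p = 0.0253). After scaling its D105 level was 7.09 FPKM, against 2.78 FPKM on the line. This call held in 4 of the 9 fits with a library left out, with adjusted p up to 0.109 without D105 replicate 1. The test of a peak against both days did not pass (adjusted p = 0.246).

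RMI2 encodes a subunit of the Bloom helicase complex, which resolves recombination intermediates in DNA. It was at 0.608, 0.891 and 0.776 FPKM at D85, 5.26, 3.87 and 3.29 FPKM at D105, and 1.73, 1.26 and 0.976 FPKM at D135. The D105 libraries did not overlap the others, and the departure was 1.22 ± 0.15 (SE, adjusted p = 0.0467). Outside D105 too few libraries reached 1 FPKM for the filter. RMI2 thus entered the test only through D105 libraries, where it is high, and its p is no independent support for a departure. This call held in 1 of the 9 fits that each left out a library, with adjusted p from 0.0465 to 0.145.

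UHMK1, a serine/threonine kinase with an RNA-binding domain, was low at D85 and high on both later days. It was at 2.63, 1.84 and 2.13 FPKM at D85, 8.24, 8.21 and 8.40 FPKM at D105, and 7.44, 6.86 and 7.94 FPKM at D135. D105 was far above D85, and after scaling it lay between the other days. The departure was 0.80 ± 0.09 (SE, adjusted p = 0.0409), and it passed in 2 of the 9 fits with a library left out.

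WNT16, a secreted WNT ligand, was chosen after its values were seen. It was at 0.464, 0.524 and 0.705 FPKM at D85, 1.32, 1.36 and 1.51 FPKM at D105, and 0.109, 0.0171 and 0.0205 FPKM at D135. Its D105 libraries were above the other 6. The departure of 0.78 ± 0.10 (SE) missed the threshold over all tested loci (adjusted p = 0.0528) and was under it among the 12134 loci with a reference transcript (adjusted p = 0.0492). WNT16 reached 1 FPKM only at D105, so it entered the test only through the group where it is high, and it was not tested with D105 replicate 2 left out.

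PRSS23, a secreted serine protease, was nearly undetected at D105. It was at 1.24, 1.41 and 0.890 FPKM at D85, 0.05, 0.00985 and 0.172 FPKM at D105, and 2.36, 1.98 and 2.65 FPKM at D135. Every D105 library was below the other 6. The departure was -1.29 ± 0.11 (SE, adjusted p = 0.0101), and it passed in all 9 fits with a library left out (adjusted p from 0.00979 to 0.037). The test of a trough against both days gave an adjusted p of 0.246.

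The other called genes below the line were highest at D135. TMEM159 encodes promethin, a protein of lipid droplet assembly, and was at 2.72, 1.57 and 1.73 FPKM at D85, 2.38, 2.61 and 1.88 FPKM at D105, and 24.6, 23.4 and 24.9 FPKM at D135. The D85 and D105 libraries overlapped and D135 stood above both. TMEM159 departed by -1.25 ± 0.13 (SE, adjusted p = 0.02), and the call held in 6 of the 9 fits with a library left out.

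DUPD1, a dual-specificity phosphatase of muscle, was at 1.49, 1.49 and 1.76 FPKM at D85, 1.08, 1.24 and 0.942 FPKM at D105, and 5.78, 6.90 and 8.50 FPKM at D135. D105 was lowest without overlap, and the difference from D135 was the larger. The departure was -1.08 ± 0.13 (SE, adjusted p = 0.0433), and it passed in 2 of the 9 fits with a library left out.

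**Figure D1:**
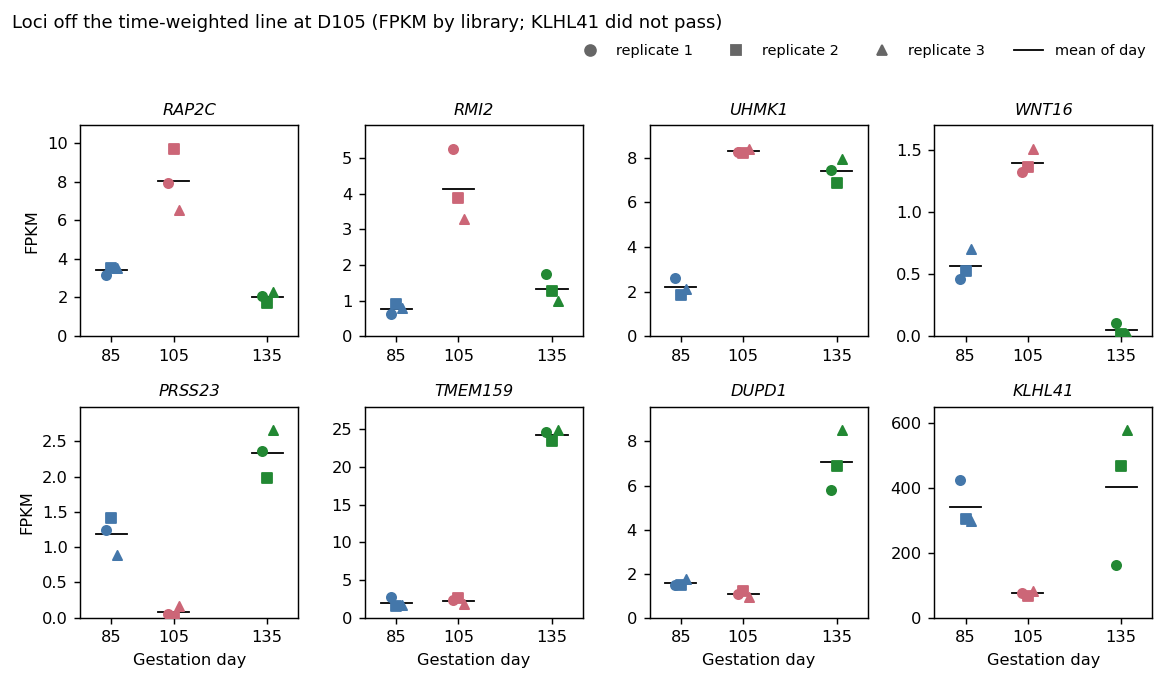
FPKM (vertical axis, linear from 0) against gestation day for 8 genes; each point is a library, its shape gives the replicate, and the bar is the mean of the day. RAP2C, RMI2 and WNT16 were highest at D105, UHMK1 was low only at D85, PRSS23 was near 0 at D105, and TMEM159 and DUPD1 were highest at D135; WNT16 was under the threshold only among loci with a reference transcript and KLHL41 did not pass.

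The called peak and the called trough were fragments without a reference transcript. The unnamed loci here were chosen after their values were seen. MSTRG.2474, the peak, was listed at 5.64, 5.13 and 7.26 FPKM at D105 and at 0 in the other 6 libraries (adjusted p of the peak = 0.000497). It entered the test only through the 3 D105 libraries in which it is high, so that p is no independent support for a peak. The trough, MSTRG.101, carries the name of RNF220, a ubiquitin ligase, and was listed at 0 in all D105 libraries. It was at 5.40, 4.7 and 6.50 FPKM at D85 and 3.94, 4.95 and 4.17 FPKM at D135 (adjusted p of the trough = 0.000954).

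The RNF220 locus that holds the reference transcript did not show that trough. It was at 7.86, 8.51 and 7.72 FPKM at D85, 8.22, 6.30 and 7.50 FPKM at D105, and 5.90, 4.85 and 4.91 FPKM at D135. Its departure was -0.05 (adjusted p = 0.881). The trough was called for the fragment alone. The remaining called fragments were MSTRG.10235 and MSTRG.9363 above the line and MSTRG.2252 and MSTRG.2313 below it. MSTRG.2313 was listed at 0 at both D85 and D105 and at 11.3, 17.9 and 15.5 FPKM at D135. MSTRG.2252 was listed at 0 from D105 on. Both entered the test only through the 3 libraries of the day on which they are high, so their p-values are no independent support for a departure.

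Among the 12134 loci with a reference transcript, 4 were above the line (0.033%), 3 were below it (0.0247%) and 0 were called as a peak or trough by limma. At an unadjusted p under 0.05 the same loci gave 79 peaks and 95 troughs.

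More loci had D105 libraries outside the range of the other 6 without passing the test. After scaling, 146 loci (1.12%) had all D105 libraries above and 196 (1.5%) had all below. Without scaling these numbers were 377 (2.88%) and 50 (0.382%), so the balance between high and low loci turned with the scaling. Without scaling the median departure of all tested loci moved from -0.01 to 0.12. Whether these shares exceed those of any other set of 3 libraries was not tested. The genes in the following 5 paragraphs did not pass at an adjusted p of 0.05. Many of them were chosen because their D105 libraries lay outside the others, so that trait is no separate support for a peak or trough.

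SPON2, a matrix protein of the spondin family, was at 2.34, 1.52 and 1.26 FPKM at D85, 3.61, 5.32 and 3.10 FPKM at D105, and 1.49, 1.09 and 1.19 FPKM at D135 (departure 0.85 ± 0.16 SE, adjusted p = 0.220). NPNT, nephronectin, an integrin ligand of the matrix, was at 6.30, 7.28 and 6.52 FPKM at D85, 10.1, 7.39 and 10.2 FPKM at D105, and 2.39, 2.18 and 3.59 FPKM at D135. The lowest D105 library of NPNT was close to the highest D85 library. TSPAN33, a tetraspanin, was at 1.08 to 1.52 FPKM at D85, 3.40 to 5.61 FPKM at D105 and 1.03 to 1.69 FPKM at D135.

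PRCP, the lysosomal prolylcarboxypeptidase, was at 7.28, 5.58 and 5.95 FPKM at D85, 9.01, 9.59 and 9.91 FPKM at D105, and 4.30, 4.38 and 4.30 FPKM at D135 (departure 0.56 ± 0.09 SE, adjusted p = 0.157). BAC5, a cathelicidin, which is an antimicrobial peptide of granulocytes, was at 0.717, 0.502 and 0 FPKM at D85, 3.01, 2.27 and 4.04 FPKM at D105, and 0.432, 1.15 and 0.208 FPKM at D135 (departure 1.35 ± 0.26 SE, adjusted p = 0.224). Both genes had their D105 libraries above all others. Outside D105, BAC5 reached 1 FPKM only in D135 replicate 2, so it would not have entered the test without D105 libraries. S100A9, another granulocyte gene, was at 1.92 to 2.91 FPKM at D105 and at 0.651 to 1.5 FPKM in the other libraries (adjusted p = 0.263). Of 19 leukocyte markers, 17 had a locus and 7 were tested. The summed level of those 7 was 46.3, 69.9 and 47.0 FPKM at D105 and 32.7 to 51.7 FPKM in the other libraries. None of the 17 was listed at 0 in every library. The part of leukocyte content in these values was not tested.

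PVALB, parvalbumin, the calcium buffer of fast fibres, was at 0.501, 0.691 and 0.575 FPKM at D85, 2.18, 4.56 and 1.30 FPKM at D105, and 0.102, 0.240 and 0.333 FPKM at D135. Its D105 libraries were above the others (departure 1.17 ± 0.24 SE, adjusted p = 0.227). Like WNT16, it reached 1 FPKM only at D105 and was not tested without D105 replicate 2. The neuromuscular junction gave a pair of such genes. ACHE, acetylcholinesterase, which ends transmission at the synapse, was at 4.43, 4.95 and 4.52 FPKM at D85, 8.64, 7.12 and 9.41 FPKM at D105, and 4.59, 4.15 and 2.0 FPKM at D135 (departure 0.72 ± 0.20 SE, adjusted p = 0.302). AGRN, agrin, which gathers acetylcholine receptors, was at 9.19 to 11.3 FPKM at D85, 10.8 to 13 FPKM at D105 and 5.72 to 7.78 FPKM at D135. As deposited its D105 and D85 libraries overlapped, and after scaling they did not. Of 14 tested genes of this junction, 5 lay above the line and 9 below. Without D105 replicate 2 the balance turned to 9 above and 5 below, and without scaling to 11 above and 3 below.

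Among the genes low at D105, KLHL41 lay far below the line. It encodes a kelch protein that stabilises the thin filaments of the sarcomere. KLHL41 was at 423, 305 and 299 FPKM at D85, 76.2, 65.9 and 82.9 FPKM at D105, and 162, 467 and 577 FPKM at D135. The D105 libraries were below the others by a wide margin, and D135 replicate 1 was well below the other D135 libraries. The departure was -2.36 ± 0.39 (SE, adjusted p = 0.157), with a D105 level of 66.5 FPKM after scaling against 345 FPKM on the line.

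Of 20 genes of excitation-contraction coupling, 17 were below the line, with a median of -0.22. Without scaling 13 were below and 7 above (median -0.05), and the median was -0.08 after quantile normalization. After scaling, 3 of the genes (JPH2, PLN and SRL) had all D105 libraries below the other 6. JPH2, a junctophilin, was at 27.7, 29.0 and 34.9 FPKM at D85, 18.9, 17.6 and 5.84 FPKM at D105, and 28.3, 28.3 and 32.5 FPKM at D135 (departure -1.35 ± 0.32 SE, adjusted p = 0.262). PLN, phospholamban, the inhibitor of the calcium pump, was at 4.02, 6.86 and 5.14 FPKM at D85, 0.570, 0.792 and 0.291 FPKM at D105, and 33.8, 1.73 and 2.50 FPKM at D135 (adjusted p = 0.357). Both had D105 below all others, and 1 D135 library set the D135 mean of PLN. NDUFA12, a subunit of mitochondrial complex I, was at 24.1, 16.6 and 20.6 FPKM at D85, 11.2, 8.16 and 8.61 FPKM at D105, and 19.9, 41.7 and 35.3 FPKM at D135 (departure -1.45 ± 0.26 SE, adjusted p = 0.186). C1QBP, a protein of the mitochondrial matrix, was at 27.9 to 34.1, 22.1 to 25.9 and 36.6 to 42.8 FPKM on the 3 days. QDPR, which regenerates tetrahydrobiopterin, GLRX2, a mitochondrial glutaredoxin, and NDUFAF5, an assembly factor of complex I, were also below the range of the other libraries.

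Whole groups of genes lay on one side of the line while none of their members passed. The lists are described by counts and medians beside those of all tested loci, of which 48.0% were above the line and 52.0% below, with a median departure of -0.01. With limma 0 members of the 47 lists passed over all 9 libraries.

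Genes of slow fibres lay below the line. All 14 of the slow isoforms were below it, with a median departure of -0.76 and 11 at an unadjusted p under 0.05. Their median change was 0.05 from D85 to D105 and 2.0 from D105 to D135. MYL2, the slow regulatory light chain, was at 412, 588 and 300.5 FPKM at D85, 354, 507 and 252 FPKM at D105, and 3735, 1687 and 3040 FPKM at D135 (departure -1.48 ± 0.31 SE, adjusted p = 0.227). Its D85 and D105 libraries overlapped, and the D135 libraries were above both. MYH7, slow myosin, departed by -1.08 and TNNT1, slow troponin T, by -1.04.

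Adult fast isoforms lay on both sides of the line. Of 11 tested, 8 were below and 3 above (0 and 2 at an unadjusted p under 0.05), with a median of -0.21 that turned to 0.09 after quantile normalization. ACTN3, the alpha-actinin of fast fibres, was above the line: it was at 4.71, 5.36 and 7.44 FPKM at D85, 45.4, 62.1 and 95.3 FPKM at D105, and 174, 249 and 157 FPKM at D135 (departure 1.16 ± 0.27 SE, adjusted p = 0.252). The 3 days did not overlap, and D105 lay between the others. MYLPF, the fast light chain, was at 5209, 2641 and 2876 FPKM at D105, which overlapped D85 (2495 to 3840 FPKM) and D135 (4417 to 5810 FPKM). EEF1A2, the elongation factor isoform of mature muscle, was above the line too, at 3.09 to 8.69 FPKM at D85, 76 to 168 FPKM at D105 and 577 to 660 FPKM at D135 (departure 1.27 ± 0.29 SE, adjusted p = 0.238).

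Energy metabolism lay below the line as well, and so did markers of muscle fibres in general. The 17 tested fibre markers were all below, with a median of -0.39 and 7 at an unadjusted p under 0.05. Of 26 sarcomere scaffold and Z-disc genes, 24 were below (median -0.27). These medians were -0.23 and -0.215 without D105 replicate 2. After quantile normalization they were -0.08 and -0.145, against -0.225 for oxidative phosphorylation. Of 34 oxidative phosphorylation genes, 33 were below, with a median of -0.40 and 23 at an unadjusted p under 0.05. All 20 genes of the tricarboxylic acid cycle were below, with a median of -0.35 and 15 at an unadjusted p under 0.05. The median change of the oxidative phosphorylation list was 0.12 in the first interval and 1.17 in the second, and that of the tricarboxylic acid list 0.15 and 1.04. ATP5F1, a subunit of ATP synthase, was at 69.9, 65.4 and 57.7 FPKM at D85, 62.9, 52.8 and 56.9 FPKM at D105, and 95.6, 119 and 90.9 FPKM at D135. The earlier days overlapped and D135 was above both (departure -0.59 ± 0.12 SE, adjusted p = 0.227). IDH2, the mitochondrial isocitrate dehydrogenase, was at 2.98 to 4.45, 4.19 to 5.54 and 14.3 to 16.8 FPKM on the 3 days.

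Of 28 genes of fatty acid uptake and oxidation, 21 were below the line (median -0.24, 9 at an unadjusted p under 0.05). Without scaling 18 were below and 10 above (median -0.09). FABP3, the fatty acid carrier of muscle, was at 32.2, 20.4 and 29.1 FPKM at D85, 21.7, 27.4 and 20.1 FPKM at D105, and 52.6, 53.0 and 51.9 FPKM at D135 (departure -0.77 ± 0.16 SE, adjusted p = 0.227). ECI2, an isomerase of beta-oxidation, had all D105 libraries (11.8 to 12.9 FPKM) below the other 6. Of 31 genes of glycolysis and glycogen, 23 were below (median -0.20, 9 at an unadjusted p under 0.05). That median was -0.02 without scaling, with 14 above and 17 below, and -0.03 after quantile normalization. It was -0.11 without D105 replicate 2 and -0.32 without D105 replicate 3. A locus described as COX6A2, the muscle form of a cytochrome c oxidase subunit, was at 130, 129 and 121 FPKM at D85, 115, 160 and 124 FPKM at D105, and 342, 322 and 307 FPKM at D135. It passed only with D105 replicate 2 left out (adjusted p = 0.0261), and it was named after its values were seen.

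Ribosomal proteins lay below the line under the scaling used here and not after quantile normalization. Of 72 tested, 70 were below, with a median of -0.25, 21 at an unadjusted p under 0.05 and 10 with all D105 libraries below the other 6. Without scaling 57 were below and 15 above, with a median of -0.07 beside 0.12 for all tested loci. After quantile normalization the median was -0.001, beside 0.009 for all tested loci. As deposited, their summed level was 30330, 28930 and 27890 FPKM at D105, inside the span of 26950 to 34010 FPKM of the other libraries. RPL13 was at 81.9, 75.2 and 79.4 FPKM at D85, 51.8, 68.4 and 64.9 FPKM at D105, and 68.2, 71.1 and 61.7 FPKM at D135, and its D105 and D135 libraries overlapped before scaling.

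**Figure D2:**
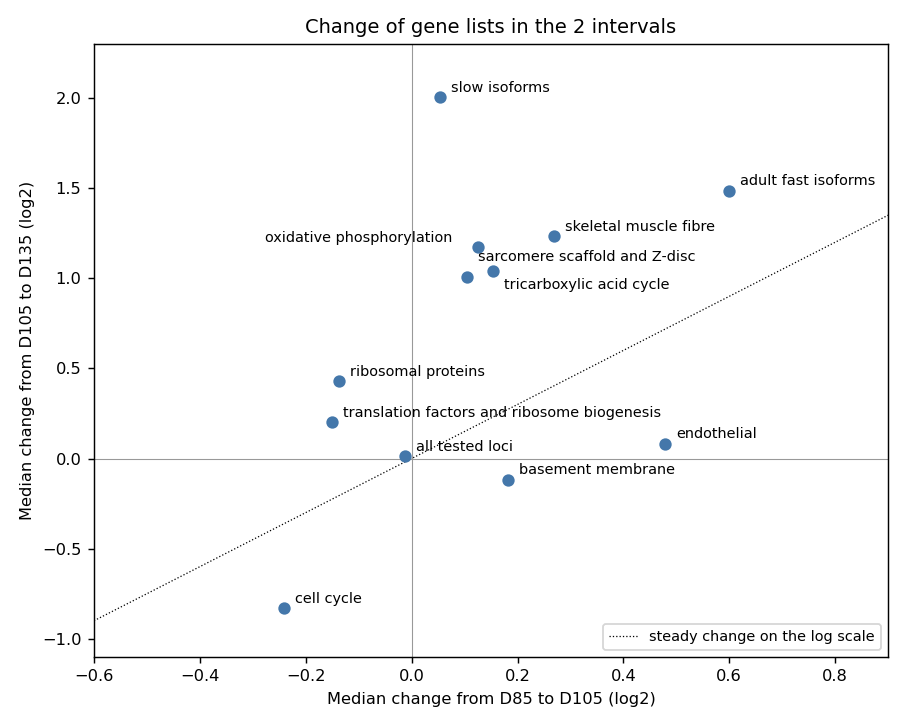
Median log2 change of gene lists from D85 to D105 (horizontal) and from D105 to D135 (vertical), after scaling; each point is a list and the dotted line marks a steady change over the 50 days. Slow isoforms, oxidative phosphorylation and the tricarboxylic acid cycle lie far above the dotted line, with nearly all of their change in the second interval, and the endothelial list lies below it.

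Other lists lay above the line. Of 17 endothelial markers, 16 were above, with a median departure of 0.22 and 6 at an unadjusted p under 0.05. Both counts include SOX18, which reached 1 FPKM outside D105 only in D135 replicate 3. It thus entered the test only through D105 libraries, where it is high. The medians of the separate D105 libraries were 0.25, 0.25 and 0.24. The list changed by a median of 0.48 up to D105 and by 0.08 after it. EGFL7, secreted by endothelial cells, was at 13, 13.7 and 15 FPKM at D85, 25.8, 23.8 and 26.2 FPKM at D105, and 23.9, 20.5 and 24.5 FPKM at D135 (departure 0.38 ± 0.09 SE, adjusted p = 0.263). The D105 and D135 libraries overlapped, and D85 was below both. ERG, an endothelial transcription factor, departed by 0.40 and PECAM1, a junction protein of these cells, by 0.33.

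Of 15 basement membrane genes, 14 were above the line, with a median of 0.09 and 4 at an unadjusted p under 0.05. The median was 0.03 without D105 replicate 1 and 0.14 without D105 replicate 2, and 0.26 without scaling and 0.25 after quantile normalization. COL15A1, a collagen that joins the basement membrane to the matrix around vessels and fibres, was at 69.3, 86.8 and 75.9 FPKM at D85, 174, 164 and 170 FPKM at D105, and 120, 122 and 144 FPKM at D135. Its D105 libraries were the highest as deposited, and after scaling they overlapped with D135. The departure was 0.66 ± 0.10 (SE, adjusted p = 0.157). IGFBP3, a carrier of insulin-like growth factors, had a like course at 7.94 to 13.4, 23.3 to 29.8 and 16.1 to 23.0 FPKM (departure 0.78 ± 0.19 SE, adjusted p = 0.263).

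Cell cycle genes had lower medians on each later day, with the larger difference after D105. Of 43 tested, 36 were above the line, with a median departure of 0.17 and 9 at an unadjusted p under 0.05. The list changed by a median of -0.24 in the first interval and -0.83 in the second. TOP2A, the topoisomerase of dividing cells, was at 26.1, 30.1 and 24.5 FPKM at D85, 24.5, 22.5 and 25.4 FPKM at D105, and 4.38, 5.06 and 7.18 FPKM at D135 (departure 0.54 ± 0.14 SE, adjusted p = 0.289). D85 and D105 overlapped, and D135 was below both. CCND2, cyclin D2, followed the line with a departure of -0.002.

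**Figure D3:**
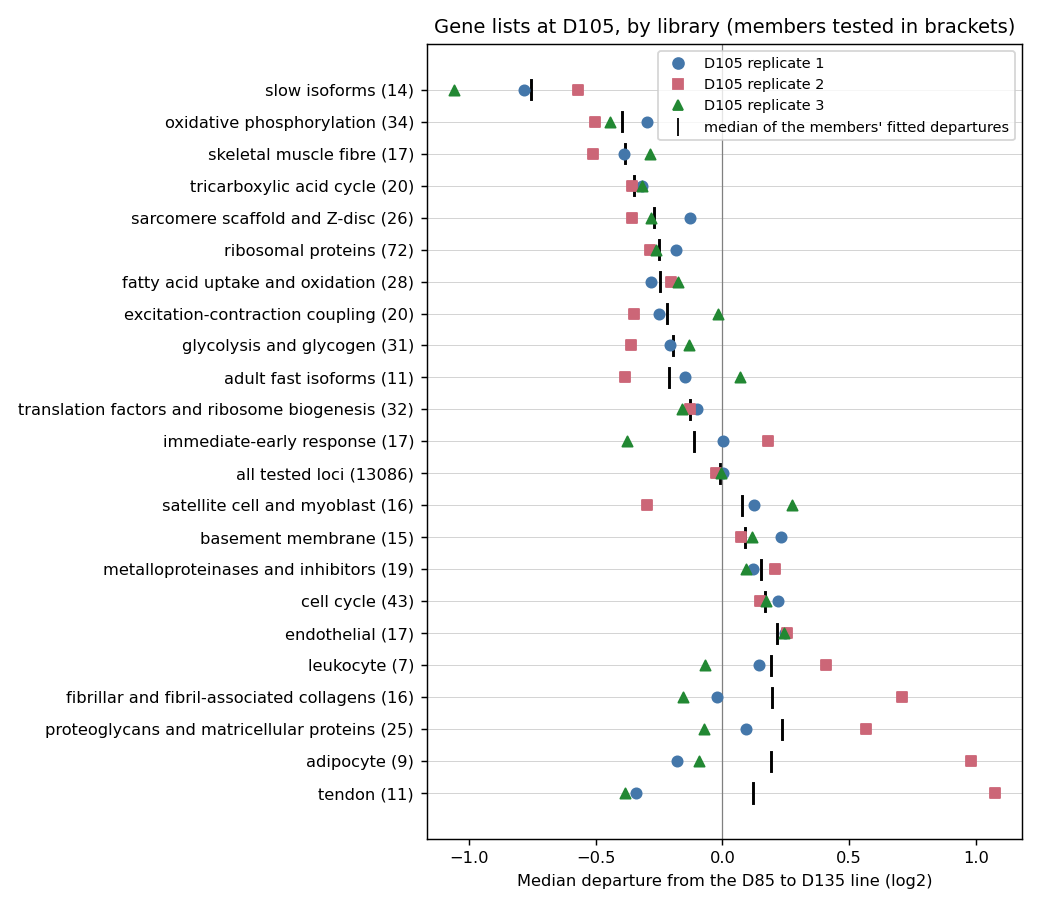
Median departure from the line (log2, horizontal) of 22 gene lists and of all tested loci at D105; each symbol is a D105 library, the bar is the median of the members' fitted departures, and the number tested is in brackets. The libraries lie close together for the endothelial, cell cycle and tricarboxylic acid lists, while D105 replicate 2 lies far to the right for tendon, adipocyte, proteoglycan and collagen genes.

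Connective tissue genes depended on D105 replicate 2. TNMD, tenomodulin, a tendon protein, was at 17.3, 21.0 and 6.56 FPKM at D85, 2.06, 85.2 and 3.06 FPKM at D105, and 0.0364, 13.1 and 30.6 FPKM at D135. KERA, keratocan, was at 7.61, 149 and 9.19 FPKM at D105, COL11A2, a cartilage collagen, at 1.15, 64.3 and 2.26 FPKM, and CPXM2, a carboxypeptidase-like secreted protein, at 0.333, 24.1 and 0.604 FPKM. In each of these genes replicate 2 was the highest of the 9 libraries, and D135 replicate 1 was far below the other D135 libraries.

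The medians of the lists followed that library. The median of 16 collagens was 0.19 with all libraries and -0.11 without D105 replicate 2, that of 15 fibroblast markers 0.21 and -0.08, and that of 11 tendon markers 0.12 and -0.36. The adipocyte list, of which 9 members were tested, went from 0.19 to -0.13. With D105 replicate 1 left out instead, the medians of the collagen, fibroblast, tendon and adipocyte lists were 0.34, 0.38, 0.42 and 0.48. With all libraries, 1 collagen and 2 fibroblast markers were above the line at an unadjusted p under 0.05, and 0 tendon and 0 adipocyte markers. FABP4, the fatty acid carrier of adipocytes, was at 0.785, 45.6 and 0.897 FPKM at D105, and D135 replicate 2 was also high at 34.2 FPKM. The medians of the endothelial (0.24), cell cycle (0.20), slow isoform (-0.86), oxidative phosphorylation (-0.34) and tricarboxylic acid lists (-0.32) kept their sign without D105 replicate 2. The numbers below the line at an unadjusted p under 0.05 fell from 23 to 13 for oxidative phosphorylation, from 15 to 7 for the tricarboxylic acid cycle and from 21 to 8 for ribosomal proteins in that fit, which has fewer libraries. The part of tendon, cartilage and fat cells in the other departures was not tested.

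Without D105 replicate 2, 12909 loci were tested, and 6 were above the line (0.0465%), 18 below (0.139%) and 6 called as a trough (0.0465%). No peak was called by limma, against 83 peaks at an unadjusted p under 0.05. Of the 24 called loci 7 were also called with all libraries, among them RAP2C, PRSS23, TMEM159 and the RNF220 fragment. Of the 24, 12 held a reference transcript, and 11 were listed at 0 in both remaining D105 libraries.

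Of the loci with a reference transcript that passed only in that fit, 2 with symbols were high. EDIL3, a secreted integrin ligand, was at 2.69, 3.33 and 3.20 FPKM at D85, 5.78, 3.30 and 5.78 FPKM at D105, and 1.09, 0.726 and 0.978 FPKM at D135 (departure 1.06 without replicate 2, adjusted p = 0.0246). Replicate 2 lay within the range of D85. GFRA1, the receptor subunit that binds the glial neurotrophic factor GDNF, was at 9.0, 9.05 and 9.10 FPKM at D85, 17.9, 9.71 and 14.4 FPKM at D105, and 4.99, 4.71 and 5.09 FPKM at D135 (departure 0.92 without replicate 2, adjusted p = 0.0246). Here replicate 2 was close to D85. STAC2, an adaptor of excitation-contraction coupling, and SLC24A2, a sodium, calcium and potassium exchanger, had the same order and missed the threshold (adjusted p = 0.0518 for each).

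BANF1, which binds DNA and the nuclear envelope, was the named gene with a called trough in that fit (adjusted p of the trough = 0.00186). It was at 32, 36.5 and 34.9 FPKM at D85, 4.65, 31.1 and 3.94 FPKM at D105, and 33.6, 43.7 and 39.3 FPKM at D135. D105 replicates 1 and 3 were far below the rest, and replicate 2 was at the level of the other days. With all libraries the departure was -2.10 ± 0.54 (SE, adjusted p = 0.278). KCNMA1, a calcium-activated potassium channel, was at 4.89 to 6.42 FPKM at D85, 3.65, 8.68 and 3.15 FPKM at D105, and 8.65 to 10.1 FPKM at D135 (adjusted p = 0.0206 without replicate 2). TSHZ3, a zinc finger factor, was listed at 0, 1.96 and 0 FPKM at D105, at 2.0 to 2.11 FPKM at D85 and at 0 in all D135 libraries. It passed without replicate 2 (adjusted p = 0.0246). In that fit TSHZ3 entered the test only through the D85 libraries, where it is high, so its p is no independent support for a departure.

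The remaining troughs of that fit were MSTRG.8947, MSTRG.7799, MSTRG.1387, MSTRG.5288 and the RNF220 fragment, and these loci without a symbol were named after their values were seen. MSTRG.8947 was at 302, 320 and 335 FPKM at D85, 0, 156 and 0 FPKM at D105, and 41.0, 57.0 and 65.3 FPKM at D135. MSTRG.7799 was likewise listed at 0 in replicates 1 and 3 and at 100.5 FPKM in replicate 2. Over all loci, 65 were listed at 0 in D105 replicates 1 and 3 and at 1 FPKM or more in replicate 2, and 87 were listed at 0 in replicate 2 and at 1 FPKM or more in both others. Loci at 1 FPKM or more in replicate 3 and listed at 0 in the other D105 libraries numbered 63, and the same for replicate 1 numbered 53.

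**Figure D4:**
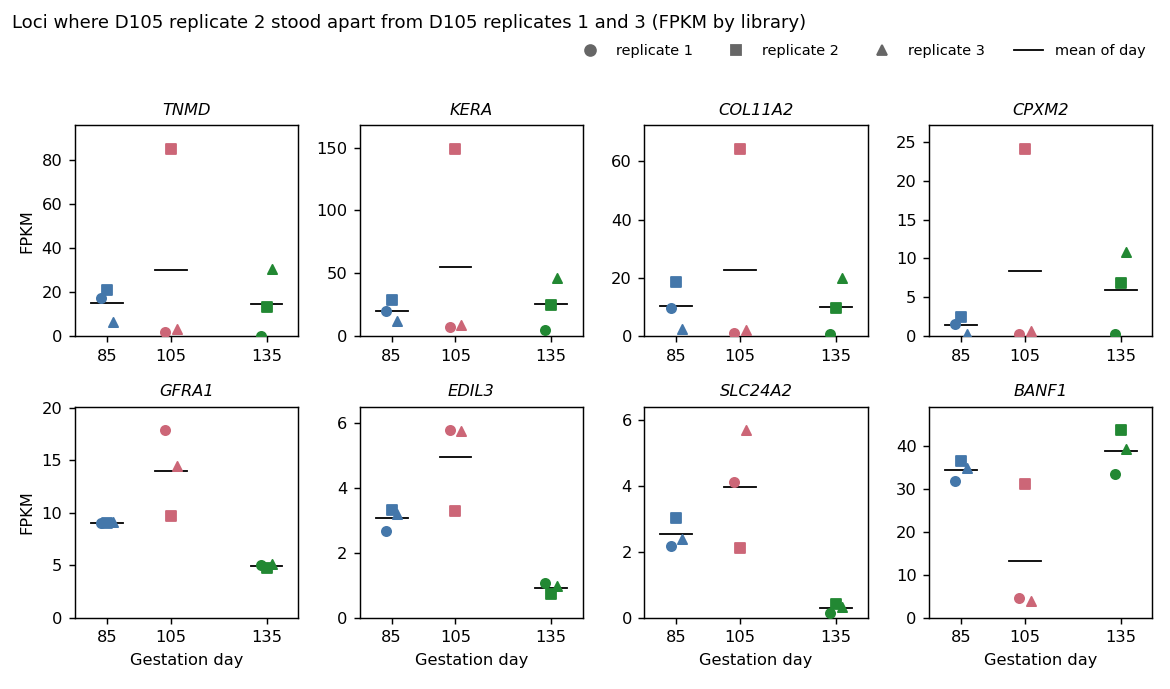
FPKM (vertical axis, linear from 0) against gestation day for 8 genes in which D105 replicate 2 (square) lay apart from D105 replicates 1 and 3; each point is a library and the bar is the mean of the day. The square is the highest of 9 libraries for TNMD, KERA, COL11A2 and CPXM2, and for BANF1 it is near the other days while replicates 1 and 3 lie at 4.65 and 3.94 FPKM.

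**Figure D5:**
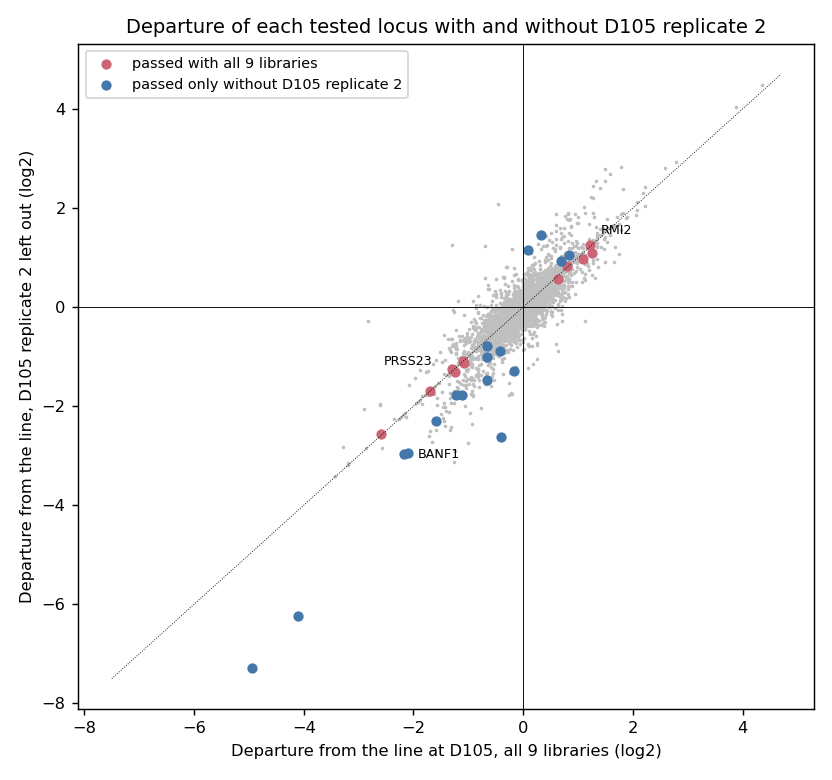
Departure from the line of the 12909 loci tested in both fits, with all 9 libraries (horizontal, log2) and with D105 replicate 2 left out (vertical, log2); the dotted diagonal marks equal values. The 11 loci that passed with all libraries (red) lie near the diagonal, while the 17 that passed only without replicate 2 (blue) mostly lie farther from zero on the vertical axis, such as BANF1.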

How the data were processed

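Per the labels, RNA of 9 libraries was extracted with Trizol and sequenced on Illumina instruments. The authors deposited FPKM values as 1 table in which every library has its column, per the file headers. Cutadapt, Bowtie2 and TopHat2 were used, per the submitters' processing notes. No coordinates are printed, since the build is not given in the sources used here, nor are versions, the assembler or the counting. Read depth is unknown.

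Of 22605 loci, 16538 had a gene symbol, 488 of them from a RefSeq gene table of ARS-UI_Ramb_v3.0, and 101 joined several gene names. FPKM was scaled by median-of-ratios factors, 13086 loci with at least 1 FPKM in at least 3 libraries were kept, and log2(FPKM + 1) was fitted with limma 3.58.1 (R 4.3.3), using lmFit, contrasts.fit and a trended eBayes on 9 libraries without a block. Tests were two-sided with Benjamini-Hochberg adjustment over all tested loci and a threshold of 0.05. For peaks and troughs the larger of the pairwise p-values was used. Lists got counts and medians only.

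Named genes had a symbol and a mean of at least 2 FPKM on the highest day. They were the 15 largest called departures per direction, or the smallest p among genes with D105 outside the other 6 libraries, up to 10 peaks or troughs, 10 per direction without D105 replicate 2 or set apart in it, and up to 4 members per list with the one of highest mean. Members and lists (47 lists, 1025 of 1093 entries matched) were chosen with earlier results of these data known. The procedure was tested on simulated data. Alternatives changed scaling, pseudocount, filter, variance model, weights, block and libraries. The fits of loci with a reference transcript or above 0 in every library were chosen after seeing the data. Plots used matplotlib 3.10.9 (Python 3.11.15).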

Additional observations from a re-analysis of the deposited data

How the results depend on the processing

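The counts of called loci were small and moved with the setting, and the cause was not tested. With a replicate block 1 locus was above and 1 below the line. The correlation of deviations was -0.0682 to 0.0603 between same-numbered libraries of different days and -0.0927 to 0.0504 between the other pairs. A litter or batch shared by libraries of the same number was not tested. With equal weights of D85 and D135, 10 were below. With a pseudocount of 0.1 there were 0 peaks (74 at an unadjusted p under 0.05), and without the filter 2. Among loci with a reference transcript 3 were below, with 0 peaks and 0 troughs (79 and 95 at an unadjusted p under 0.05). Loci above 0 in every library gave 3 below, 0 peaks and 0 troughs (81 and 96). Loci with a reference transcript and D105 replicate 2 left out gave 2 above, 0 peaks (79) and 2 troughs. With each library left out in turn, 0 to 7 loci were above, 2 to 18 below, 0 to 3 were peaks and 1 to 6 troughs. The fewest above (0, with 393 at an unadjusted p under 0.05) came without D105 replicate 1, the most below without D105 replicate 2, and the fewest below without D135 replicate 2. The called peak, MSTRG.2474, falls out of the filter when any D105 library is left out.

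The sign of several list medians turned with the D105 library left out, and not all of these are given with the lists. Without D105 replicates 1, 2 and 3 in turn, the satellite cell and myoblast median was 0.04, 0.22 and -0.14. The WNT median was 0.15, -0.03 and -0.02, the histone and chromatin median -0.04, 0.01 and -0.06, and the unfolded protein response median 0.04, -0.03 and -0.06. Some departures of single loci also changed sign when D105 replicate 1 or 3 was left out. The values without D105 replicates 1, 2 and 3 in turn were -0.13, 0.78 and -0.09 for TSPAN12, -0.36, 1.15 and -0.53 for the JOSD1 fragment, -0.28, 1.45 and -0.20 for the ANK2 fragment, 0.71, -2.62 and 0.71 for MSTRG.8986, and 0.40, -1.30 and 0.40 for the FADS2 fragment. Unknown read depth limits all values near 1 FPKM.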

Other observations

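Some gene groups stayed near the line at D105. Of 25 histone and chromatin genes, 13 were above and 12 below, with a median departure of 0.004. Of 20 genes of the unfolded protein response, 10 were above and 10 below (median 0.01), and of 16 glucocorticoid-responsive genes 8 and 8 (median -0.003). Without D105 replicate 2 these numbers were 14 and 11, 9 and 11, and 6 and 9. NCOR1, a corepressor of nuclear receptors, was at 22.7 to 26 FPKM at D85, 23.4 to 24.4 FPKM at D105 and 17.8 to 20.5 FPKM at D135, with a departure of -0.05.

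Of 16 imprinted genes, 13 were above the line, with a median departure of 0.10 and median changes of -0.41 before and -0.74 after D105. Without D105 replicate 2, 9 were above and 7 below (median 0.06), and without scaling the median was 0.26. PEG10, a retrotransposon-derived imprinted gene, was at 331, 423 and 316 FPKM at D85, 206, 185 and 188 FPKM at D105, and 31.8, 21.8 and 24.9 FPKM at D135. The 3 days did not overlap (departure 0.45 ± 0.12 SE, adjusted p = 0.302). A ribosomal locus had split values within D105: RPS15 was at 0.805 to 1.30 FPKM at D85, 199, 0.556 and 1.09 FPKM at D105, and 486 to 594 FPKM at D135.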
